A study of Mus musculus with 9 samples.

Results

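The genes described here are 7 genes of cytosolic RNA sensing, picked by symbol from the deposited table of 21951 protein-coding genes: Ddx58, Ifih1, Dhx58, Mavs, Eif2ak2, Adar and Ddx60. All 7 were found in the table, and all 7 were among the 11295 genes with enough reads to be tested. They were matched by name alone, but the list itself was drawn up with earlier results of these data known.

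RNA sensing in the cytosol separates foreign or misplaced RNA from normal transcripts. Ddx58 encodes RIG-I, which binds short double-stranded RNA with a 5′ triphosphate, and Ifih1 encodes MDA5, which binds long double-stranded RNA. Dhx58 encodes LGP2, which lacks the signalling domains of the other two and adjusts their activity. RIG-I and MDA5 signal through MAVS, an adaptor on the outer mitochondrial membrane, to the kinases and transcription factors that induce type I interferon. Eif2ak2 encodes PKR, a kinase that stops translation when it meets double-stranded RNA. Adar encodes ADAR1, which edits adenosine to inosine in double-stranded RNA and so keeps cellular RNA from setting off MDA5 and PKR. Ddx60 encodes a large helicase reported to help RIG-I. Most of these genes are themselves raised by interferon, and microglia, the resident macrophages of the brain, express the pathway.

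RNA was sequenced from BV2 cells, an immortalised line of wild-type mouse microglia, in 9 libraries, 3 in each of 3 groups. Control cells were kept in vehicle (20% HP-β-CD, a cyclodextrin) for 30 min and were not irradiated. Irradiated cells were kept in the same vehicle for 30 min and then exposed once to 10 Gy of X-rays. Triol-treated cells had 10 µM of the steroid 5α-androst-3β, 5α, 6β-triol instead, also for 30 min, ahead of an equal exposure. All 3 triol titles carry that name, whereas the treatment field of replicate 2 reads 7β and that of replicate 3 reads 8β where the name has 6β; the titles were followed. For the triol-treated cells no vehicle is named, and none of the 9 libraries is from cells given triol without X-rays. How long after exposure RNA was taken is not stated in the labels. All cells are of 1 line, and no label ties the replicates to separate cultures. The p-values therefore reflect the spread between these libraries alone, which may be technical. In bulk RNA, more responding cells and more RNA per cell cannot be told apart.

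Libraries held 13879062 to 18944051 counts. Of 14 microglial and macrophage markers 12 averaged at least 1 RPM (a gene's reads for every 1000000 counts in the library), while P2ry12 and Fcrls, which mark resident microglia in tissue, were below that. The summed level of these 14 markers ranged from 2820 to 2964 RPM in control libraries, from 2173 to 2254 RPM after radiation and from 2199 to 2252 RPM after radiation with triol. Summed markers of neurons (0.129 to 0.791 RPM in control, up to 3.27 elsewhere), astrocytes (at most 2.48, Aqp4 at 0 reads), oligodendrocytes (5.20 to 7.81, Olig2 at 0 reads) and endothelium (at most 2.21, Cldn5 at 0 reads) were low in all 9 libraries. The 8 hepatocyte markers summed to 5.01 to 6.61 RPM without radiation, to 3.95 to 6.42 RPM with radiation, and to 11.6 to 14.2 RPM with radiation and triol. Most of the sum without triol was Trf, with 50 to 80 reads a library there and 54 to 98 with triol. Alb had 4, 11 and 6 reads in control, 24, 11 and 2 in irradiated and 61, 65 and 82 in triol-treated libraries. The part of these markers in the results below was not tested.

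The promoters are shown because genes of this pathway are known to carry the interferon-stimulated response element (ISRE), the site bound by interferon-activated factors. RefSeq windows on GRCm38.p6, from 250 bases before to 50 bases after a transcription start, were matched by symbol for 6 of the 7 genes, with 3 starts for Adar. Dhx58 had no window, and the windows of Adar are not printed. Windows are written 5′ to 3′ on the strand of the gene, with capitals for matches to the ISRE core GAAANNGAAA on either strand.
Ddx58, chr4:40239776-40240075, minus strand: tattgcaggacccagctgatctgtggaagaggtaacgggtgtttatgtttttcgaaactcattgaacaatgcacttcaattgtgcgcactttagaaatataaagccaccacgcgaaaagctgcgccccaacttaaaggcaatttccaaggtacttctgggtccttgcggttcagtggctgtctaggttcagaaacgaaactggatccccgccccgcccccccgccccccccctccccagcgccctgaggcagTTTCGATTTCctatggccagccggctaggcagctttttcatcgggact
Ifih1, chr2:62646206-62646505, minus strand: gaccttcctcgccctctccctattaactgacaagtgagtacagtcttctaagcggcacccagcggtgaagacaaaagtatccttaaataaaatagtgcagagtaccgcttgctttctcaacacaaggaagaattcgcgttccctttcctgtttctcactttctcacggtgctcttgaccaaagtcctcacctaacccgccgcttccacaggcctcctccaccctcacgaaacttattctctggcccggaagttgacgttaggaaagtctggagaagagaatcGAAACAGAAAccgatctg
Ddx60, chr8:61927837-61928136, plus strand: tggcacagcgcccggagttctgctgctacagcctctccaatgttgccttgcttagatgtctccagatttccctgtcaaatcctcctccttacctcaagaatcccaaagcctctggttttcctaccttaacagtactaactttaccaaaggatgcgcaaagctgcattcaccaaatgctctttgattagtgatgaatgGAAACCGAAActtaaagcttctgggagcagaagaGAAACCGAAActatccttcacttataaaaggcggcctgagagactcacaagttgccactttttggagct
Eif2ak2, chr17:78882523-78882822, minus strand: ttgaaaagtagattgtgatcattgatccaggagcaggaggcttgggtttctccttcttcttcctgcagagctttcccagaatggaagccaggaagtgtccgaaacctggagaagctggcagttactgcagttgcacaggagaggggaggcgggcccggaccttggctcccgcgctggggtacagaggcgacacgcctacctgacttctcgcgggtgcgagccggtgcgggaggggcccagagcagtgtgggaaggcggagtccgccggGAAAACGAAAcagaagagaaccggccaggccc
Mavs, chr2:131233813-131234112, plus strand: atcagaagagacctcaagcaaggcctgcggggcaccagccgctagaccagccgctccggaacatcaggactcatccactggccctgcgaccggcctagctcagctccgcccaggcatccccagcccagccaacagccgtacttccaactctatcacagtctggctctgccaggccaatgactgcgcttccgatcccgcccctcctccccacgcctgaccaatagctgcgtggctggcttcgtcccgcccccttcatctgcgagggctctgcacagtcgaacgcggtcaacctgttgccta

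Ddx58, Ifih1 and Eif2ak2 each held 1 match to the ISRE core and Ddx60 held 2, while the window of Mavs and the 3 windows of Adar held 0. The match of Ddx58 lay on the opposite strand, 3 to 12 bases after the start, that of Ifih1 33 to 42 bases after it and that of Eif2ak2 19 to 28 bases after it. In Ddx60 the pair began 53 and 19 bases before the start. For scale, 3.44% of the 32851 RefSeq windows held a match, as did 3.84% of the 8977 tested genes with a window. Of the 305 tested genes with a window that rose at least 2-fold with radiation, 12.1% held one. A second motif, the interferon-gamma activated site TTCNNNGAA, was found in Eif2ak2 (TTCCCAGAA) and in the third window of Adar (TTCAAGGAA), against 8.30% of all windows. The variant GAAANGAAA, with a spacer 1 base shorter, was searched after the windows had been seen. It occurred as GAAACGAAA in Ddx58 and, overlapping the second motif by 3 bases, in the third window of Adar, against 3.17% of all windows. A match describes letters in these windows, and binding was not measured.

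**Figure D1:**
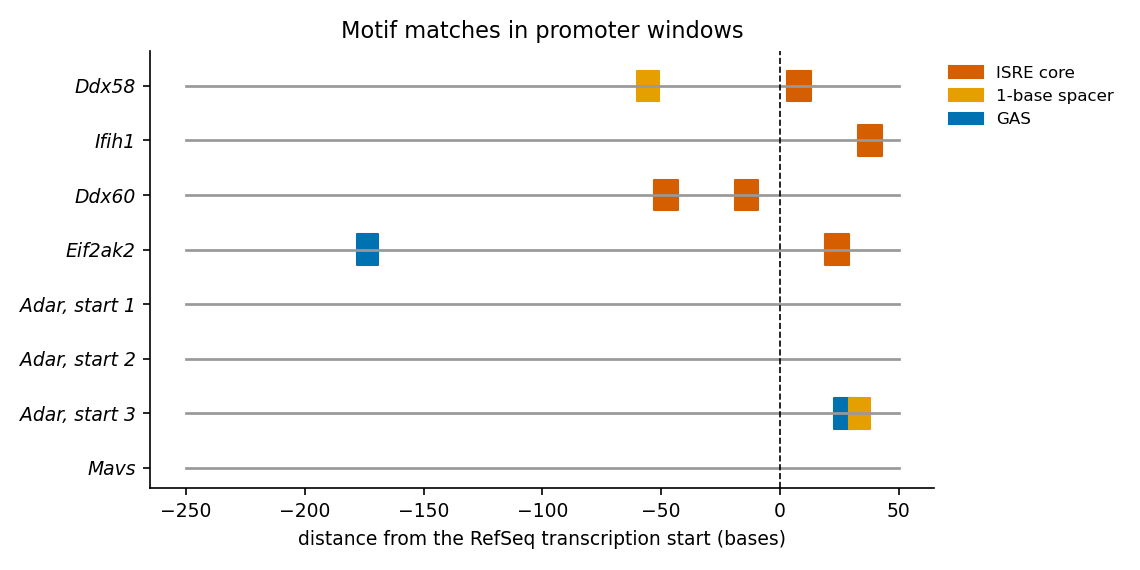
Horizontal lines are the RefSeq promoter windows of 6 genes, from 250 bases before to 50 after the start (dashed line), and boxes are matches on either strand to the ISRE core, the interferon-gamma activated site (GAS) or the variant with a 1-base spacer. The ISRE core lies in the windows of Ddx58, Ifih1, Ddx60 (2 matches) and Eif2ak2, and in none of Adar or Mavs. The third window of Adar holds a GAS and the variant, whereas Mavs holds no match to any of these motifs.

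The first comparison asked how 10 Gy changed these genes. The 3 RIG-I-like receptor genes and Ddx60 rose by more than 2-fold, Eif2ak2 and Adar rose by about 1.5-fold, and Mavs fell slightly. Values below are CPM, counts for every 1000000 of a library size adjusted by TMM, a scaling that corrects for composition. Differences are log2 fold changes with standard error (SE) from edgeR's quasi-likelihood test, called where the Benjamini-Hochberg adjusted p over all tested genes was under 0.05.

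Ddx58 (ENSMUSG00000040296, chromosome 4, 40203773 to 40239828, minus strand, GRCm38) had 29.9, 29.5 and 26.7 CPM in the control libraries and 100.1, 92.5 and 83.9 CPM in the irradiated libraries. Every irradiated library was at least 2-fold above every control library. The log2 fold change was 1.68 (SE 0.06, edgeR adjusted p = 4.6e-22). Ifih1 (ENSMUSG00000026896, chromosome 2, 62595798 to 62646255, minus strand) had 3.54, 3.09 and 2.67 CPM in control and 11.9, 8.35 and 8.56 CPM in irradiated libraries. Irradiated replicate 1 was the highest of these 3, and the groups did not overlap. Its log2 fold change was 1.64 (SE 0.16, edgeR adjusted p = 4.4e-11), with a 95% interval of 1.31 to 1.96 that contains the value of Ddx58.

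Dhx58 (ENSMUSG00000017830, chromosome 11, 100694884 to 100704271, minus strand) had 11.7, 12.3 and 9.38 CPM in control and 31.99, 28.5 and 26.6 CPM in irradiated libraries. The groups were again separate, and the log2 fold change was 1.38 (SE 0.09, edgeR adjusted p = 8.8e-16). The antisense gene Dhx58os covers 4.31% of the exonic bases of Dhx58. Whether counting used strand is not stated in the labels, so antisense reads could not be set apart.

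Ddx60 (ENSMUSG00000037921, chromosome 8, 61928087 to 62038244, plus strand) was the gene with the fewest reads. It had 3, 5 and 2 reads in the control libraries and 24, 36 and 22 reads in the irradiated libraries, or 0.216, 0.286 and 0.130 against 1.64, 2.57 and 1.44 CPM. It passed the filter on low counts through its irradiated and triol-treated libraries. The ratio of summed RPM was 8.92, with an exact 95% counting interval of 4.61 to 19.3 that leaves out the spread between libraries. The fitted log2 fold change was 3.08 (SE 0.44, edgeR adjusted p = 1.6e-07), and 50 of the 11295 tested genes had a higher one.

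Eif2ak2 (ENSMUSG00000024079, chromosome 17, 78852564 to 78882573, minus strand) had 105, 101 and 101 CPM in control and 167, 151 and 154 CPM in irradiated libraries. The spread within each group was small beside this difference (log2 fold change 0.62, SE 0.04, edgeR adjusted p = 7.4e-16). Genes on the other strand cover 4.32% of its exonic bases. Adar (ENSMUSG00000027951, chromosome 3, 89715022 to 89753446, plus strand) had 134, 136 and 126 CPM in control and 201, 209 and 209.9 CPM in irradiated libraries. Its log2 fold change was 0.65 (SE 0.04, edgeR adjusted p = 3.8e-18). Adar makes a longer, interferon-inducible form and a shorter constitutive form of the enzyme, and counts per gene pool them. Chrnb2, on the other strand, covers 16.8% of the exonic bases of Adar, and its own reads came to 2.04% of those of Adar in control and 3.08% in irradiated libraries.

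Mavs (ENSMUSG00000037523, chromosome 2, 131234063 to 131248025, plus strand) went the other way. It had 59.95, 66.4 and 64.8 CPM in control and 56.7, 57.5 and 55.6 CPM in irradiated libraries, and every control library was above every irradiated one. It fell by 0.17 on the log2 scale (SE 0.05, edgeR adjusted p = 0.0070). Without control replicate 2 the value was −0.14 and the call was lost (adjusted p = 0.057).

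**Figure D2:**
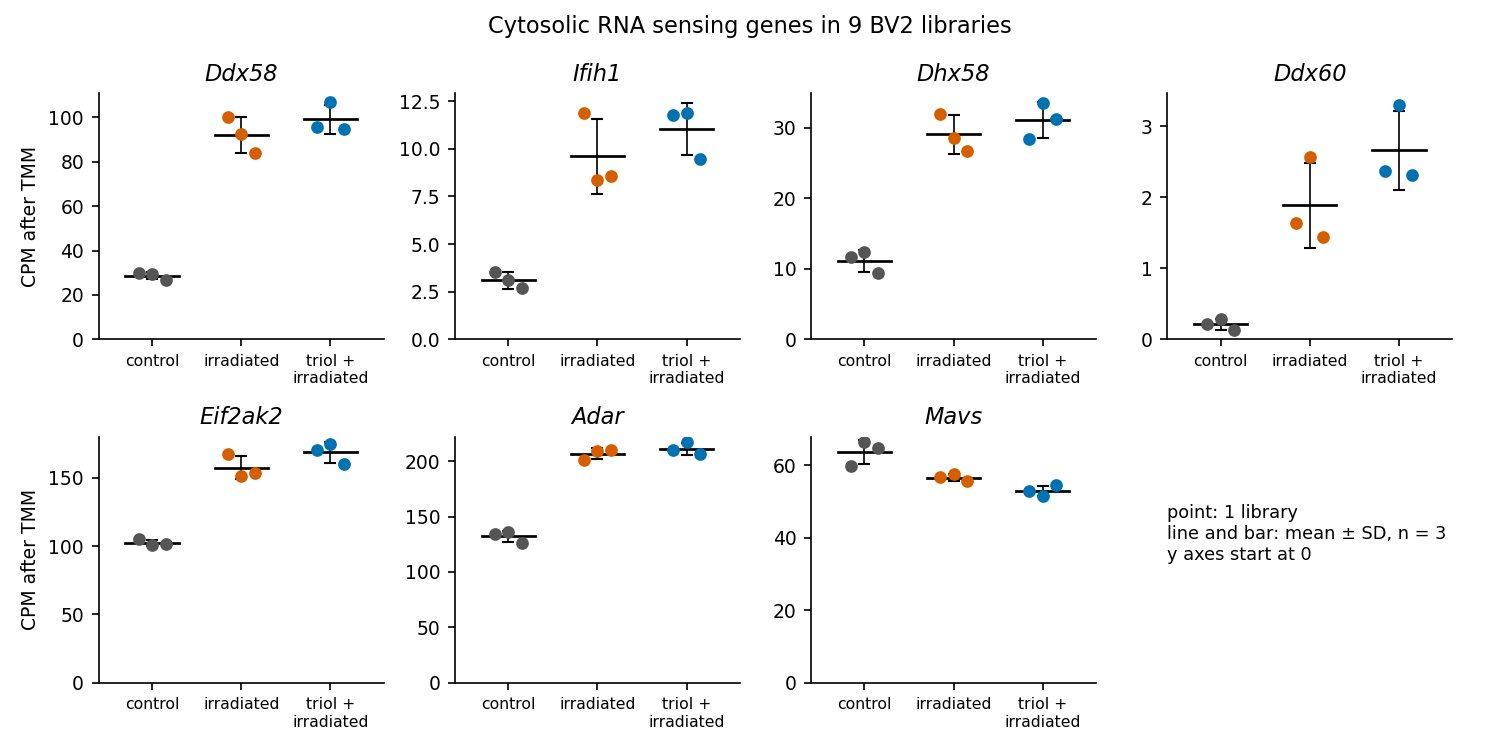
Each panel gives the CPM of 1 gene, with points for single libraries and line and bar for mean ± SD over 3 libraries of each group. The 6 sensor and effector genes are higher in every irradiated library than in any control library, and Mavs is lower.

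In all, 6 of the 7 genes were called up and 1 was called down. Over all tested genes 22.1% were called up and 22.2% down, so a call alone was common. Ddx58, Ifih1, Dhx58 and Ddx60 were called up with a log2 fold change of at least 1, against 3.91% of tested genes. Control and irradiated libraries did not overlap for 7 of 7 genes, against 50.7% of tested genes. The median log2 fold change of the 7 was 1.38, and that of all tested genes 0.01. The median of the 7 includes Ddx60 and would be lower without it. Leaving out Ddx60, which passed the filter through the groups where it is high, left 5 genes up and 1 down. Of those, Ddx58, Ifih1 and Dhx58 had a log2 fold change of at least 1.

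Levels between genes were compared as CPM per kb of exon, the union of all annotated exons in GENCODE M21. This length can exceed that of the transcripts expressed, and the order of the genes depends on it. In control libraries Eif2ak2 (20.1 ± 0.445, mean ± SD, n = 3) and Mavs (19.0, range 17.9 to 19.8) were highest, and their ranges overlapped. Adar (16.3 ± 0.635), Ddx58 (4.07 ± 0.250), Dhx58 (3.40 ± 0.472), Ifih1 (0.380 ± 0.053) and Ddx60 (0.0243 ± 0.0090) followed, each in a range separate from its neighbours. MDA5 transcripts were thus much scarcer per length than those of RIG-I and LGP2. In irradiated libraries the order was Eif2ak2 (30.8 ± 1.68), Adar (25.5 ± 0.603), Mavs (16.9 ± 0.279), Ddx58 (13.1 ± 1.14), Dhx58 (8.87 ± 0.829), Ifih1 (1.18 ± 0.244) and Ddx60 (0.217 ± 0.069). No neighbours overlapped there, and per kb Adar had moved above Mavs. In plain CPM Adar was above Mavs in control libraries already (means of 132 and 63.7).

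**Figure D3:**
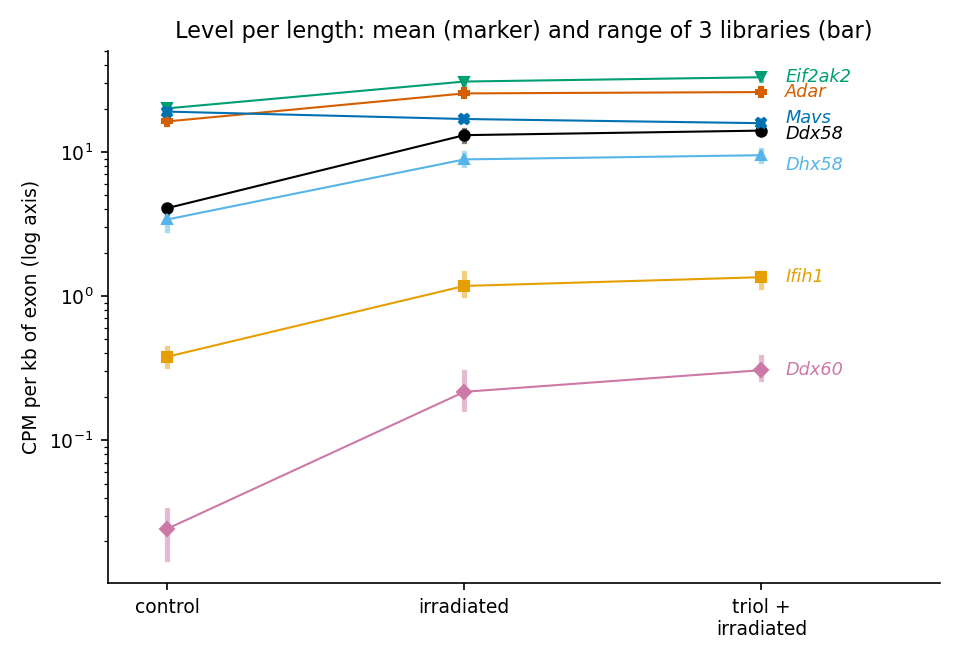
Level of each gene per kb of exon in the 3 groups on a log axis, with markers for means and bars for the range of 3 libraries. Adar and Mavs change places between control and irradiated libraries, and Ifih1 and Ddx60 stay lowest in each group.

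Ratios between 2 genes within a library do not depend on scaling. The per-length ratio of Ddx58 to its adaptor Mavs was 0.237, 0.211 and 0.196 in control and 0.838, 0.764 and 0.716 in irradiated libraries. All irradiated libraries thus lay above all control libraries. The ratio of Ifih1 to Mavs was 0.0200 ± 0.0037 in control and 0.0695 ± 0.0144 in irradiated libraries (mean ± SD, n = 3). Among the receptors the ratios moved less. That of Ddx58 to Ifih1 was 10.8 ± 0.912 in control and 11.3 ± 1.55 in irradiated libraries, within the spread. That of Dhx58 to Ddx58 was 0.841, 0.898 and 0.757 in control and 0.689, 0.663 and 0.684 in irradiated libraries, lower in all 3. The ratio of Eif2ak2 to Adar was 1.23 ± 0.049 in control and 1.21 ± 0.096 in irradiated libraries, again within the spread. With 3 libraries a group, no exact permutation test of a ratio can go below 0.10, so none is given.

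The rest of the pathway was followed in 8 lists of 234 genes, of which 202 were tested. In irradiated against control cells 83 of these (41.1%) were called up and 31 (15.3%) down, beside 22.1% and 22.2% of all tested genes. The lists were chosen with earlier results of these data known and hold interferon-induced genes, so these shares are descriptions only. Among 20 tested cofactors and regulators of the RIG-I-like receptors, 7 rose (35.0%) and 2 fell (10.0%), with a median of 0.03. Lgals9, which encodes the lectin galectin-9, rose by 1.10 (SE 0.08) and Trim13, a ubiquitin ligase gene, by 0.61 (SE 0.11). Trim25, the ligase that ubiquitinates RIG-I, rose by 0.38 (SE 0.03, edgeR adjusted p = 8.2e-13). Rnf135, which encodes the RIG-I ligase Riplet, had 0.35 (adjusted p = 0.045) and Zc3hav1, the antiviral zinc finger protein ZAP, had 0.09 (adjusted p = 0.031). Each of these 2 calls was lost under 6 of 15 alternatives, with adjusted p of up to 0.22. Tkfc, which encodes an inhibitor of MDA5, had 0.05 (95% interval −0.21 to 0.31) and Cyld, a deubiquitinase that restrains RIG-I, had 0.01 (−0.10 to 0.11), and neither was called. Rnf125, another ligase that restrains RIG-I, had 0 reads in all libraries.

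Of 38 tested genes that act with or after MAVS, 11 rose (28.9%) and 8 fell (21.1%), with a median of −0.02, and both shares were near those of all tested genes. Irf7, the interferon regulatory factor that amplifies interferon production, rose by 1.44 (SE 0.12) and Ifit3, which is reported to bridge MAVS and TBK1 and is itself an interferon-induced gene, by 2.66 (SE 0.18). Nlrc5, an activator of class I genes also reported to restrain RIG-I signalling, rose by 0.51 (SE 0.05). Neither kinase gene was called up. Ikbke fell by 0.47 (SE 0.07, edgeR adjusted p = 2.5e-07) and Tbk1 had −0.09 (95% interval −0.18 to 0.01, adjusted p = 0.13). Irf3, the factor both kinases phosphorylate, had −0.08 (−0.24 to 0.08, adjusted p = 0.41). Traf3, which links MAVS to these kinases, fell by 0.15 (adjusted p = 0.0055), a call lost without irradiated replicate 2 (0.068). Nlrx1, a mitochondrial restraint on MAVS, had 9 reads in all libraries together and was not tested.

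Products of the pathway were read from 21 interferon genes and 5 cytokine genes. Of the interferon genes 16 had 0 reads in every library. Ifnb1, which encodes interferon beta, had 0 reads in each control library, 7, 6 and 4 reads in the irradiated libraries and 7, 6 and 7 reads in the triol-treated libraries. Every irradiated and triol-treated library thus held reads of a gene that no control library held. Summed over the group, irradiated libraries had 0.390 RPM. That was 6.17-fold the limit of 0.0633 RPM that 0 reads allow in control (3 reads over the group, counting error only). The counting error of the irradiated reads is left out, so this ratio is not a lower bound. Ifnb1 did not pass the filter on low counts. Without that filter Ifnb1 was called (edgeR adjusted p = 4.3e-04). The alpha interferon gene Ifnab, with 3, 3 and 1 irradiated reads against 0 in control, was called there as well (edgeR adjusted p = 0.043). That setting gave a far lower edgeR adjusted p for Ddx58 too (1.2e-189, against 4.6e-22 with the filter). The calls of Ifnb1 and Ifnab rest on few reads and are not comparable with the others. Cxcl10 (2.72, SE 0.11) and Ccl5 (2.03, SE 0.20), both chemokine genes, rose, Tnf rose by 0.30 (SE 0.06), and Ccl4 fell by 0.25. Il6 had 1.63 (SE 0.58, adjusted p = 0.020), a call lost without control replicate 3 (0.074) or irradiated replicate 3 (0.077). It stayed below 1 CPM in the control and irradiated libraries and did not pass the filter on low counts with only those 2 groups fitted.

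Among 15 tested genes of interferon receptor signalling 6 rose (40.0%) and 4 fell (26.7%), with a median of 0.07. All tested genes had 22.1% called up and 22.2% down, and the share that fell was near the latter. Isg15, a ubiquitin-like modifier gene, rose by 2.77 (SE 0.16), and Usp18, the protease that removes it and restrains the receptor, by 1.55 (SE 0.06). Irf1, an interferon-induced transcription factor gene, rose by 0.75 (SE 0.08). Stat2 and Irf9, which encode parts of the factor that binds the ISRE, rose by 0.38 (SE 0.07) and 0.56 (SE 0.06). The receptor chain Ifnar1 fell by 0.31 (SE 0.04), and Ifnar2 had −0.07 (95% interval −0.18 to 0.04).

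Of 23 tested genes around PKR and its target eIF2α, 8 rose (34.8%) and 6 fell (26.1%), with a median of 0.06. The share that fell was near the 22.2% of all tested genes. The other kinases of the initiation factor eIF2α are Eif2ak4 (GCN2), which fell by 0.29 (SE 0.04), Eif2ak3 (PERK), which fell by 0.21 (SE 0.07), and Eif2ak1 (HRI), which had −0.06 (95% interval −0.18 to 0.07). The call of Eif2ak3 was lost without control replicate 2 (adjusted p = 0.058) or irradiated replicate 1 (0.086). Prkra, an activator of PKR, fell by 0.46 (SE 0.08) and Dnajc3, an inhibitor of PKR and PERK, by 0.52 (SE 0.05). Downstream of eIF2α, Atf4 fell by 0.10 (adjusted p = 0.016), a call lost with upper quartile scaling (0.096) and without control replicate 1 (0.12) or irradiated replicate 3 (0.063). Ddit3, which encodes CHOP, rose by 0.38 (SE 0.09), and Ppp1r15a, the phosphatase subunit that reverses PKR, had 0.09 (95% interval −0.02 to 0.21).

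In the list of other RNA sensors and double-stranded RNA-binding proteins, 16 of 25 tested genes rose (64.0%) and 5 fell (20.0%), with a median of 0.18. Beside 22.1% and 22.2% of all tested genes, the share that fell was near that of all genes. Ifit1 (3.08, SE 0.13), Oasl2 (2.53, SE 0.20), Ifit2 (1.89, SE 0.10) and the endosomal double-stranded RNA receptor Tlr3 (1.75, SE 0.17) rose. The endosomal single-stranded RNA receptor Tlr7 fell by 0.37 (SE 0.03). The helicase gene Dhx9 rose by 0.11 (SE 0.03). Adarb1, the second editing enzyme, had 0.16 (adjusted p = 0.036), a call lost under 7 of 15 alternatives with adjusted p of up to 0.17. Zbp1, the sensor of Z-form RNA, had 4, 2 and 0 reads in control, 3, 5 and 7 in irradiated and 4, 14 and 7 in triol-treated libraries, and was not tested.

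The list of RNA turnover holds nucleases, exosome and Ski complex subunits, RNA-processing and cap-modifying enzymes, the dNTPase Samhd1 and the histone methyltransferase Setdb1. Of its 29 tested genes 12 rose (41.4%) and 2 fell (6.9%), beside 22.1% and 22.2% of all tested genes, with a median of 0.12. Pnpt1, which degrades RNA in mitochondria, rose by 0.38 (SE 0.04), as did the exosome genes Exosc2 (0.38, SE 0.05) and Dis3 (0.36, SE 0.04), the microRNA processing gene Dgcr8 (0.35, SE 0.07) and Samhd1 (0.29, SE 0.03). Skiv2l, the helicase that feeds cytosolic RNA to the exosome, fell by 0.30 (SE 0.06). Supv3l1 (0.12), Cmtr1 (0.20), Xrn1 (−0.00) and Dicer1 (−0.08) were not called. Among 48 other tested genes of the DExD/H-box helicase family, 20 rose (41.7%) and 3 fell (6.25%), with a median of 0.10. The largest called rises there were Ddx25 (1.64, SE 0.42), Ddx24 (0.43, SE 0.03), Ddx10 (0.40, SE 0.05) and Ddx20 (0.40, SE 0.06). The value of Ddx25 was far less precise than the others, with a 95% interval of 0.79 to 2.48.

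**Figure D4:**
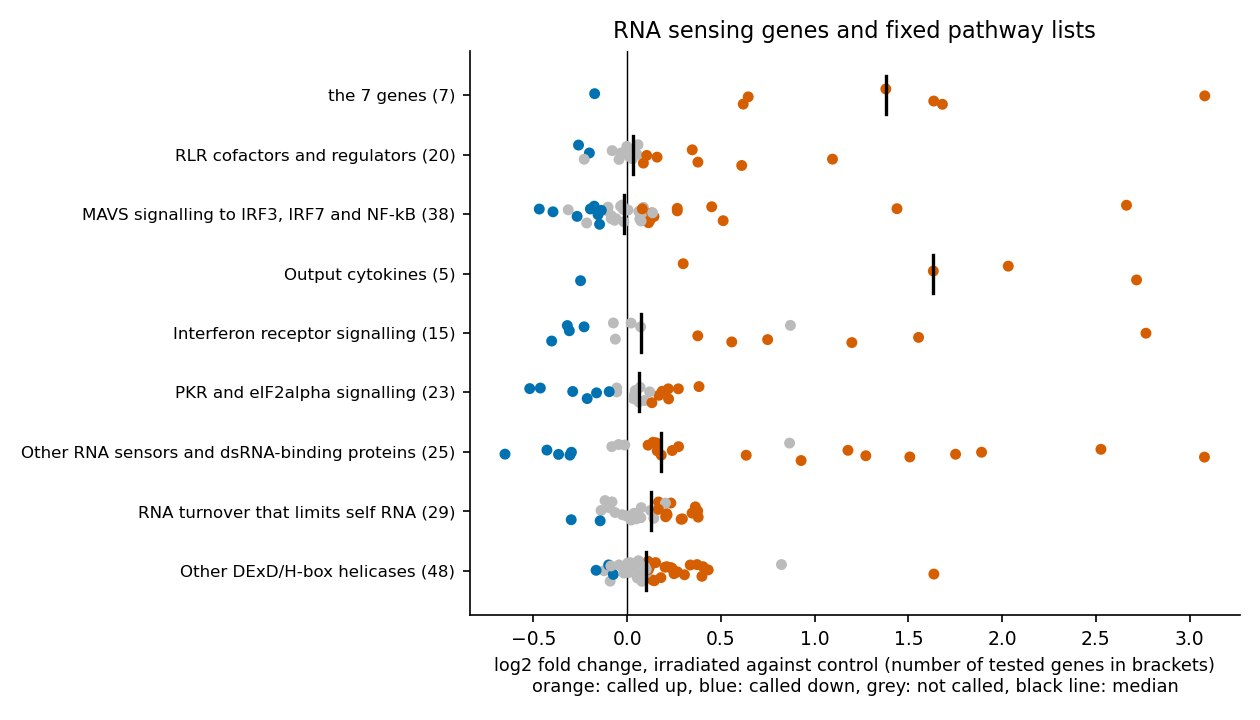
Log2 fold change of irradiated against control cells for the 7 genes and 8 pathway lists, which were chosen with earlier results known. Each point is 1 tested gene, orange for called up, blue for called down and grey for not called, with a black line at the median. The median is 1.38 for the 7 genes, Ddx60 included, and −0.02 for genes acting with or after MAVS.

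The second comparison asked whether triol given before irradiation changed these genes. None of the 7 was called by edgeR, against 0.106% of all tested genes. DESeq2 called 0 (an adjusted p exists for 2 of the 7 there), limma-voom called 0, and 1 gene (Eif2ak2) had an unadjusted p under 0.05 in edgeR. Ddx58 had 95.9, 106.8 and 94.7 CPM in the triol-treated libraries, within or just above the irradiated range, for a log2 difference of 0.11 (95% interval −0.00 to 0.21, edgeR adjusted p = 0.68). Ifih1 had 11.8, 11.9 and 9.45 CPM, a difference of 0.20 (−0.06 to 0.45, adjusted p = 0.76). Dhx58 had 28.4, 33.6 and 31.2 CPM, a difference of 0.10 (−0.06 to 0.26, adjusted p = 0.83). The triol-treated and irradiated libraries overlapped for all 3 receptor genes.

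Ddx60 had 41, 58 and 44 reads, or 2.37, 3.30 and 2.31 CPM, in the triol-treated libraries, and its lowest value there lay below the highest irradiated one. The log2 difference was 0.50 (95% interval −0.00 to 1.01, edgeR adjusted p = 0.66). Eif2ak2 had 171, 175 and 160.4 CPM, overlapping the irradiated range, and differed by 0.10 (0.02 to 0.18, unadjusted p = 0.018, adjusted p = 0.54). Adar had 209.6, 217 and 207 CPM, a difference of 0.03 (−0.04 to 0.10, adjusted p = 0.90). Mavs had 52.8, 51.5 and 54.5 CPM, all below the 3 irradiated libraries, with a difference of −0.10 (−0.20 to 0.01, adjusted p = 0.71). It was the 1 gene of the 7 whose triol-treated and irradiated libraries did not overlap, against 13.2% of all tested genes.

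For Ddx58, Dhx58, Eif2ak2, Adar and Mavs these intervals leave out a change of more than 0.26 on the log2 scale in either direction. For Ifih1 and Ddx60, with fewer reads, they reach 0.45 and 1.01. Of the 202 tested genes in the 8 lists 0 were called by edgeR, limma-voom or DESeq2 (82 have an adjusted p in the latter). In edgeR 17 of them, or 8.42%, had an unadjusted p under 0.05, against 7.66% of all tested genes. Of these 17, the lowest p was that of Tnf, which had 54.6, 52.3 and 54.7 CPM in irradiated and 45.3, 50.5 and 47.2 CPM in triol-treated libraries. The groups did not overlap, and Tnf differed by −0.18 (95% interval −0.29 to −0.06, edgeR adjusted p = 0.35). Against control cells Tnf had 0.12 with triol (edgeR adjusted p = 0.085), a difference called only with upper quartile scaling among the 15 alternatives. Stat2 differed by 0.18 (95% interval 0.04 to 0.32, adjusted p = 0.46) and Irf3 by −0.17 (−0.33 to −0.01, adjusted p = 0.63). Zc3hav1, Adarb1, Trim13 and Ddx10 were also among the 17.

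Against control cells, triol-treated irradiated cells had 6 of the 7 genes called up and 1 down. Over all tested genes 21.5% were called up, 21.7% down and 4.19% up with a log2 fold change of at least 1. Ddx60 (3.58, SE 0.39), Ifih1 (1.83, SE 0.16), Ddx58 (1.79, SE 0.06) and Dhx58 (1.48, SE 0.09) were above 1. Eif2ak2 rose by 0.72 (SE 0.04) and Adar by 0.68 (SE 0.04), and Mavs fell by 0.27 (SE 0.05, edgeR adjusted p = 4.7e-05). This comparison shares its control libraries with the first one and its triol-treated libraries with the second, so the values are set side by side as descriptions. The per-length ratio of Ddx58 to Mavs was 0.861, 0.984 and 0.825 in triol-treated libraries, and the order of the 7 genes by level per kb was the same as in irradiated libraries.

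**Figure D5:**
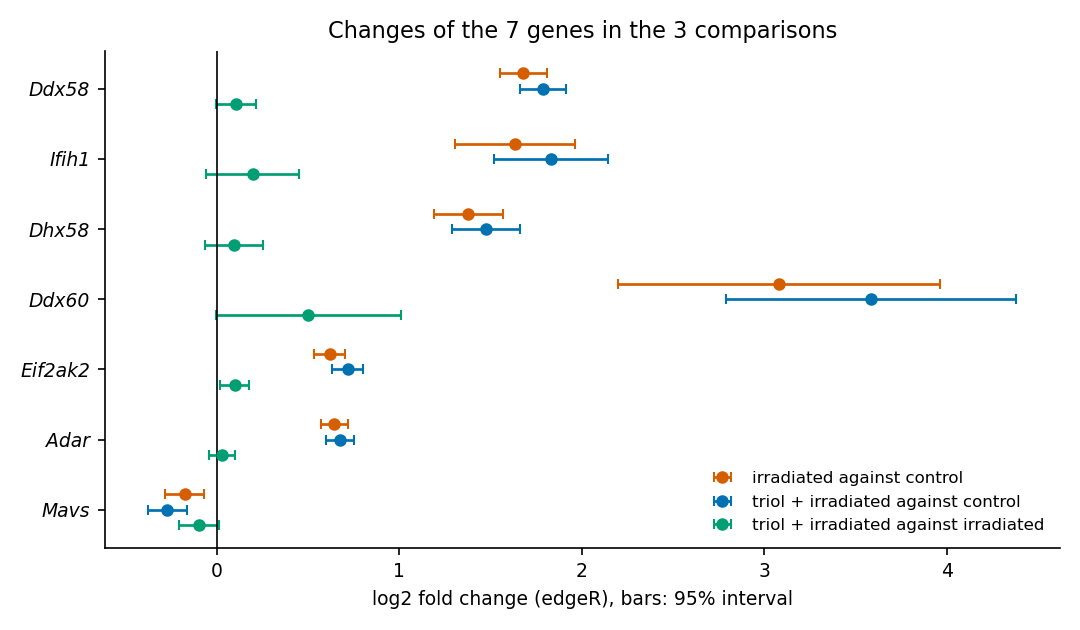
Log2 fold changes of the 7 genes from edgeR in the 3 comparisons, with approximate 95% intervals derived from the F statistic. Values against control lie above 1 for Ddx58, Ifih1, Dhx58 and Ddx60 with and without triol, and the differences between triol-treated and irradiated cells lie between −0.10 and 0.50.

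The genes whose pattern over the 9 libraries was most like each of the 7 were found as those with the smallest root mean square difference in centred log2 CPM among 11288 other tested genes. For Ddx58 they were Irgm1 (0.06), Xaf1 (0.08) and Usp18 (0.09), where the median gene was 0.83 away. For Ifih1 they were Irgm1 (0.14), Usp18 (0.15) and Aloxe3 (0.15), and for Dhx58 Irf7 (0.07), Rnf213 (0.08) and Ifi204 (0.08). Cxcl10 (0.31), Ifit3 (0.32) and Isg15 (0.33) were nearest to Ddx60. Eif2ak2 was nearest to Acod1 (0.06), Ifrd1 (0.06) and Helz2 (0.06), and Adar to Met (0.04), Pde4b (0.05) and Helz2 (0.06). For Mavs they were Acy1, Tbc1d16 and Mink1 (0.03 to 0.04), but the median gene was only 0.16 away. Among the 7, the closest pairs were Eif2ak2 with Adar (0.07) and Ddx58 with Ifih1 (0.14).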

How the data were processed

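RNA from 9 libraries of BV2 cells was prepared with Trizol and the NEBNext Ultra RNA kit, per the labels' protocols. The deposited table holds whole-number read counts per gene, not normalised by the authors, and counts were used as deposited. Per the submitters' processing notes, the build was GRCm38 and the tools named are STAR 2.7.1a, fastp 0.18.0, Subread 1.6.3 with featureCounts, and FastQC. No source used here states the annotation release, the strand setting or how multi-mapping reads were treated. All 21951 identifiers and symbols matched GENCODE M21, used for coordinates (1-based) and exon lengths.

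Groups and replicate numbers came from the titles. filterByExpr kept 11295 genes. Counts were tested with edgeR 4.0.16 in R 4.3.3 (TMM, robust quasi-likelihood F test, two-sided, 1 fit over 9 libraries, 6 residual degrees of freedom, threshold 0.05), checked on simulated data. Alternatives were DESeq2 1.42.0, limma 3.58.1 voom, upper quartile scaling, no filter, fits of 2 groups, the replicate block and leaving out each library. The biological coefficient of variation was 3.18%. Counts of replicates differed by more than sampling noise in every pair. The members and gene lists were chosen with earlier results of these data known. From each list the text names a fixed set and up to 4 called genes with the largest change by radiation. Lists are described by counts and medians, with no set test. Ccl4 lies outside this rule and was named after its value was seen. Some genes that this rule names are not reported here.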

Additional observations from a re-analysis of the deposited data

How the results depend on the processing

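Each of the 7 genes kept its direction under all 15 alternatives in the 3 comparisons. Over these, the log2 fold change of irradiated against control cells ran from 1.61 to 1.74 for Ddx58, 1.45 to 1.72 for Ifih1, 1.26 to 1.47 for Dhx58, 2.79 to 3.39 for Ddx60, 0.57 to 0.65 for Eif2ak2, 0.61 to 0.67 for Adar and −0.22 to −0.14 for Mavs. The number of the 7 called was 6 or 7, the lower value without control replicate 2, where Mavs was not called (−0.14, adjusted p = 0.057). For triol-treated against irradiated cells it was 0 under each alternative, and against control cells 7. For triol-treated against irradiated cells the count over all genes moved from 12 to 19 with DESeq2, 36 with no filter on low counts, 22 with only the 2 groups fitted and 22 with the replicate block. It ran from 6 to 19 on leaving out single libraries. Same-numbered libraries of different groups did not deviate together (correlations of −0.05 to 0.04 over 9 pairs). A small shared effect could be missed this way, and the labels do not state whether they were paired. With the replicate block 7, 0 and 7 of the 7 genes were called in the 3 comparisons. Depth limits Ddx60, Ifnb1 and Zbp1, with at most 58, 7 and 14 reads in a library.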
